A study of Mus musculus with 31 samples.

Results

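Among the genomic sites bound by the forkhead factors Foxa1 and Foxa2 in Nkx2-1-deleted mouse lung adenocarcinomas, 785 were called both bound and acetylated in that tumor type and neither in Nkx2-1-positive tumors. They were chosen by peak and island calls: each was a Foxa1/2 peak of deleted tumors on chromosomes 1 to 19 that overlapped, by at least 1 bp, no Foxa1/2 peak of Nkx2-1-positive tumors, no Nkx2-1 peak and no positive-tumor H3K27ac island, and that did overlap a deleted-tumor H3K27ac island. They made up 5.50% (95% Wilson interval 5.13 to 5.88) of the 14282 autosomal Foxa1/2 peaks of deleted tumors. Since Foxa1/2, Nkx2-1 and H3K27ac calls chose the sites, values for these 3 are given as a description. H3K4me1, H3K4me3 and H3K27me3 took no part in the choice, but their calls need not be independent of H3K27ac. In deleted tumors H3K4me1 was called at 99.7% of gained peaks off Nkx2-1 with H3K27ac in both tumor types. It was called at 55.0% of those with H3K27ac in neither. The part of the H3K27ac choice in the differences of these 3 marks was not tested. Words such as gained, newly and already compare the calls of the 2 tumor types and do not describe a sequence in time.

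Foxa1 and Foxa2 are pioneer transcription factors of endoderm-derived epithelia: they can bind their sites in closed chromatin, and such sites often carry H3K4me1 before the neighbouring gene is active. Nkx2-1 is a homeodomain factor that maintains lung epithelial identity, and in lung adenocarcinoma it shares many sites with Foxa1/2. At enhancers, H3K4me1 marks poised and active elements alike, whereas H3K27ac distinguishes the active ones. H3K4me3 marks promoters, and H3K27me3 is laid down by Polycomb complexes over silenced chromatin, cannot sit on the same histone tail residue as H3K27ac, and forms bivalent domains where it meets H3K4me3.

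Both groups were lung adenocarcinomas grown in mixed 129/B6 mice, 4 to 7 months old at collection per the labels. The mice had received adenovirus or lentivirus into the trachea and tamoxifen by injection. Positive tumors had a positive Nkx2-1 status, and deleted tumors carried a deleted Nkx2-1 gene per the labels. The driver alleles and the virus given to each mouse are not stated in the labels. Chromatin came from pulverized tumors, so tumor cells and host cells were measured together, and a change in the share of cells carrying a mark cannot be told apart from a change within the cells. 1 antibody recognised both Foxa1 and Foxa2, so the 2 proteins cannot be separated.

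Each of the 11 combinations of target and tumor type was labelled as 2 libraries, yet the 2 deposited files of each were identical, so each stood as 1 merged list. No replicate spread exists, no p-value was computed, and every interval below covers counting error over sites alone. The positive-tumor Foxa1/2 libraries were both labelled male and the deleted-tumor ones both female. Sex and Nkx2-1 status therefore cannot be told apart for a gained peak. Each histone group held 1 male and 1 female. The 4 marks of a tumor type shared their inputs per the labels, and 1 of these inputs also served an Nkx2-1 library. Library depths are unknown; the islands held 31.2 M H3K27ac reads in deleted and 45.7 M in positive tumors (M is 1000000), and the positive lists were also larger for H3K4me1 (35.8 M against 29.8 M) and H3K4me3 (28.9 M against 19.6 M). For H3K27me3 the order was the other way, with 18.5 M in positive and 19.8 M in deleted tumors.

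The steps of the choice show where these sites lie among all gained binding. Of the 14282 peaks, 4696 (32.9%) overlapped no Foxa1/2 peak of positive tumors, and 4320 of these also lay off Nkx2-1 peaks. Most of the 4320, 3484 (80.7%), were under an H3K27ac island of deleted tumors. Of those, 2699 were already under a positive-tumor H3K27ac island and 785 (22.5%) were not. Among the 4320, already acetylated peaks thus outnumbered newly acetylated ones, as they did over all peaks. H3K27ac was called in both tumor types at 11694 of the 14282 and in deleted tumors only at 994. The newly acetylated share was thus higher among the 4320 (18.2%) than over all peaks, and the already acetylated share lower. The remaining 836 gained peaks had no H3K27ac in deleted tumors, and 729 of them had it in neither tumor type. These 729 and the 2699 serve below as the comparison classes, since each differs from the 785 sites in 1 tumor type's H3K27ac call.

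The sites were ordinary Foxa1/2 peaks in width and of middling strength. Their median score, the value the authors' peak caller gave, was 126 (quartiles 85 and 240, highest 2544). It was 104 at gained peaks already acetylated, 92 at those acetylated in neither tumor type and 203 at the 9586 Foxa1/2 peaks shared by both tumor types. Median width was 879 bp, in a range of 466 to 2080 bp. The sites made up 5.95% of the lowest-scoring 10th of all deleted-tumor peaks, 6.86% of the 10th with the largest share and 1.96% of the highest-scoring 10th. Below 70, near the list's floor of 60, lay 84 sites (10.7%). The lowest-scoring 10th of all deleted-tumor peaks spanned 60 to 70, so this share was near that of the list.

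H3K4me1, the enhancer mark, differed most between the tumor types at these sites. It was called at 360 of the 785 (45.9%, 42.4 to 49.4) in positive tumors and at 756 (96.3%, 94.7 to 97.4) in deleted tumors. The difference within the same sites was 50.5 percentage points (46.9 to 54.0), and deleted tumors had the higher share on 19 of 19 autosomes. In all, 398 sites had H3K4me1 in deleted tumors only, 358 in both, 27 in neither and 2 in positive tumors only. Over all 14282 Foxa1/2 peaks of deleted tumors, H3K4me1 was called in deleted tumors only at 5.52%, in both at 90.1%, in neither at 3.53% and in positive tumors only at 0.826%. These peaks had H3K4me1 at 91% in positive and 95.6% in deleted tumors, so the newly acetylated sites lay well under that background in positive tumors and close to it in deleted tumors.

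The positive-tumor H3K4me1 at these sites was mostly in islands of lower read count. Restricting each list to its upper 50% of islands by read count left 12.2% of sites marked in positive and 51.6% in deleted tumors, a difference of 39.4 points. The islands also differed in width: where a site had H3K4me1 in both tumor types, the island was wider in deleted tumors at 302, narrower at 41 and equal at 15, with medians of 1800 bp in positive and 3200 bp in deleted tumors. The medians of the whole lists were 2400 and 2800 bp, and the part of this list-wide difference in the widths at the sites was not tested. At the 398 sites marked in deleted tumors only, the median island width was 2600 bp. Averaged over all 785 sites, H3K4me1 islands covered 40.5% of the peak's bases in positive and 95.1% in deleted tumors.

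The H3K4me1 of positive tumors was nevertheless centred on the positions that were Foxa1/2 summits in deleted tumors. It covered 43.6% of the summits, against 14.8% of positions 2 kb upstream and 12.2% of those 2 kb downstream in chromosome coordinates, and 21.0% and 19.9% at 10 kb. In deleted tumors the cover was 95.9% at the summit, 31.3% and 30.2% at 2 kb, and 25.2% and 25.1% at 10 kb. At the 729 gained peaks acetylated in neither tumor type, positive-tumor H3K4me1 was likewise highest at the summit, at 32.4%, with 15.2% and 13.4% at 2 kb. A local rise of positive-tumor H3K4me1 at the summit was thus seen in both classes.

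**Figure D1:**
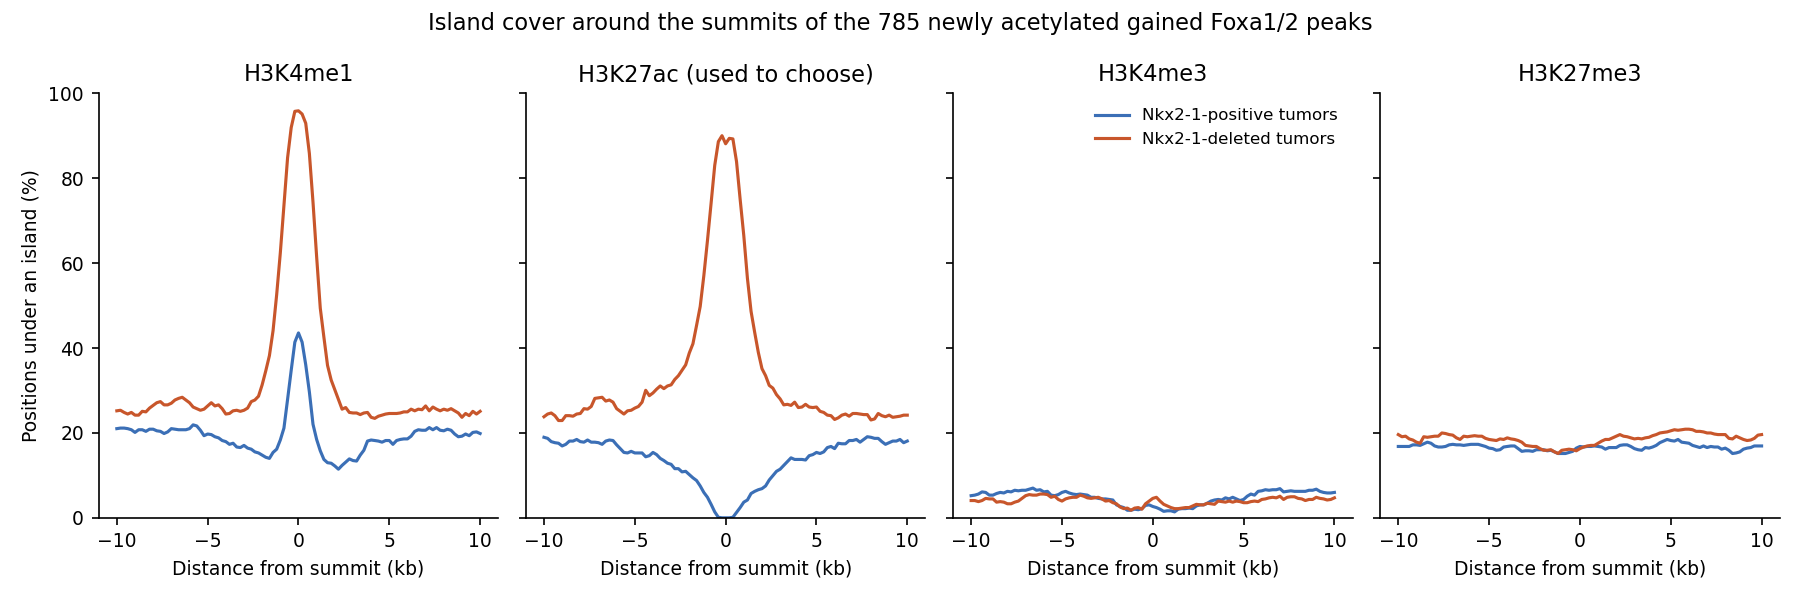
Percentage of positions under an island (y axis) by distance from the Foxa1/2 summit in kb (x axis), over the 785 sites, for 4 marks in positive (blue) and deleted (orange) tumors. H3K4me1 peaks at the summit in both tumor types (43.6% and 95.9%), whereas H3K27me3 runs flat through it (16.8% and 16.3% at the summit); the H3K27ac panel shows what the choice of sites fixed.

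H3K4me3, the promoter mark, was rare. It was called at 29 sites (3.69%, 2.58 to 5.26) in positive tumors and at 47 (5.99%, 4.53 to 7.87) in deleted tumors, a difference of 2.29 points (1.03 to 3.56). The share was higher in deleted tumors on 9 autosomes, lower on 1 and equal on 9. It was called in deleted tumors only at 22 sites and in positive tumors only at 4, while over all 14282 peaks the shares were 1.86% and 15%. In both tumor types it was called at 25 sites, against 40.2% of all these peaks. The background itself runs the other way, with H3K4me3 called at 55.2% of all peaks in positive and 42.1% in deleted tumors. The difference, deleted minus positive, was -1.37 points (-2.37 to -0.371) at gained peaks acetylated in neither tumor type. At those already acetylated it was -5.52 points (-6.91 to -4.13). Only the 29 sites with H3K4me3 in positive tumors could lose the call. These sites were chosen by H3K27ac in deleted tumors only, and the part of that choice in the opposite sign was not tested. With the upper 50% of islands the difference at these sites was 0.255 points (-0.535 to 1.04), an interval that includes 0.

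H3K27me3, the Polycomb mark, covered a minority of the sites in both tumor types. It was called at 137 sites (17.5%, 15.0 to 20.3) in positive and 144 (18.3%, 15.8 to 21.2) in deleted tumors. The difference was 0.892 points, with an interval of -0.855 to 2.64 that includes 0. When positive-tumor islands were limited so that both lists covered equal length, it was 1.78 points (0.0224 to 3.55), an interval off 0. Counted at the peak summit alone, it was -0.510 points (-2.28 to 1.26). Of the sites, 116 had it in both tumor types, 21 in positive tumors only and 28 in deleted tumors only. Over all 14282 peaks it was called in both at 3.19%, in positive tumors only at 0.602% and in deleted tumors only at 1.35%. Its totals there were 3.79% in positive and 4.54% in deleted tumors, lower than at these sites. The mark was not centred on them: it covered 16.8% of the summits, 16.8% of positions 10 kb upstream and 16.9% of those 10 kb downstream in positive tumors. Its islands were wide, with a median of 12000 bp at the 137 sites, so a site usually lay inside a domain rather than under a local island.

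**Figure D2:**
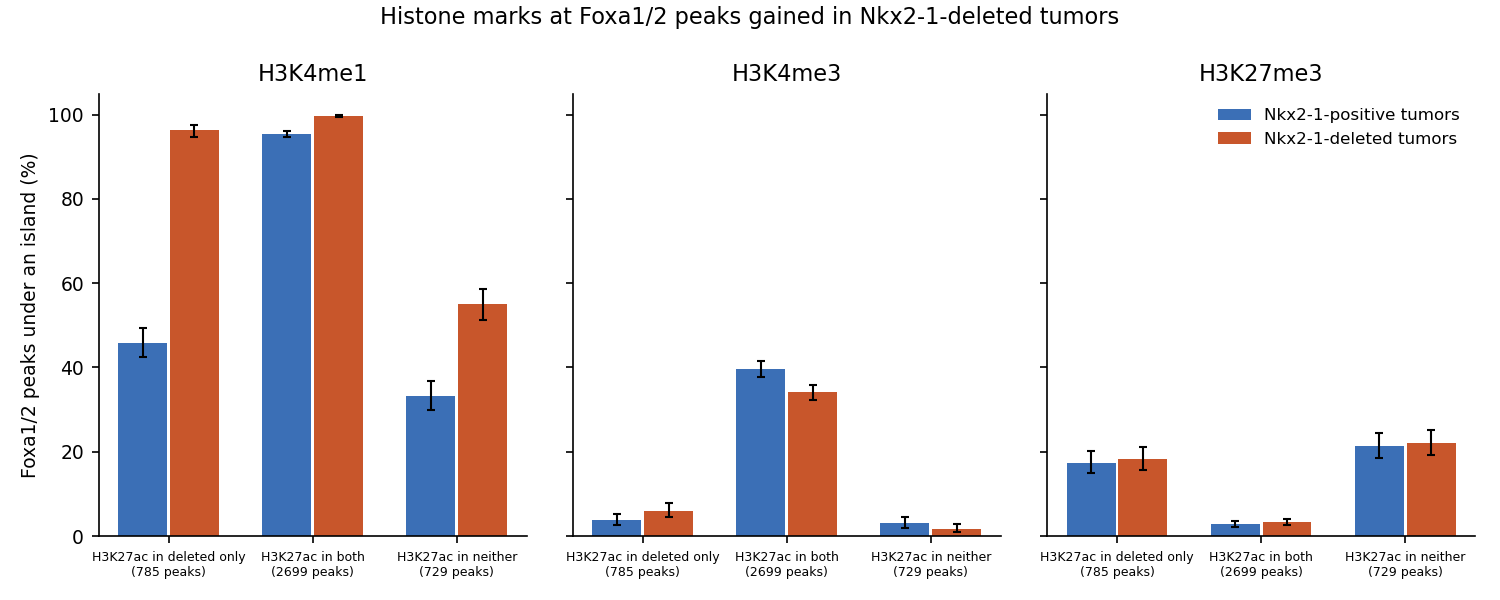
Percentage of gained Foxa1/2 peaks under an island of each mark (y axis; bars with 95% Wilson intervals) in positive (blue) and deleted (orange) tumors, by H3K27ac class (x axis). H3K4me1 is 45.9% in positive and 96.3% in deleted tumors at the 785 newly acetylated sites, and 33.3% and 55.0% at the 729 sites acetylated in neither. H3K27me3 has a similar height in both tumor types for each class.

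Compared with the 2699 gained peaks that were already acetylated, the newly acetylated sites less often carried the enhancer and promoter marks and more often the Polycomb mark. H3K4me1 was called at 95.4% of the former in positive tumors, and the difference, newly minus already acetylated, was -49.6 points (-53.1 to -46.0). In deleted tumors it was -3.44 points (99.7% against 96.3%; interval -5.00 to -2.29). H3K4me3 was called at 39.6% of the already acetylated peaks in positive and 34.1% in deleted tumors, against 3.69% and 5.99% here. H3K27me3 ran the other way: it was called at 2.78% of them in positive tumors and was 14.7 points (12.1 to 17.5) more frequent at the newly acetylated sites, with the same direction on 19 of 19 autosomes. In deleted tumors that difference was 15.1 points (12.5 to 18.04).

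Compared with the 729 gained peaks acetylated in neither tumor type, H3K4me1 separated the classes and the other marks did so less. In deleted tumors H3K4me1 was called at 55.0% of these, and the difference, newly acetylated minus these, was 41.3 points (37.4 to 45.1). In positive tumors it was called at 33.3%, a difference of 12.5 points (7.61 to 17.4), in a direction seen on 18 of 19 autosomes. Set against all 836 gained peaks without H3K27ac in deleted tumors, the positive-tumor difference was 6.03 points (1.21 to 10.8), and it turned to -5.35 points (-8.80 to -1.88) when only the upper 50% of islands were used. Against the 729 the same setting gave 0.295 points (-3.02 to 3.58) in positive tumors, an interval that includes 0, and 37.05 points (32.6 to 41.3) in deleted tumors. H3K27me3 was called at 21.3% of the 729 in positive tumors and 22.1% in deleted tumors, and its differences from the newly acetylated sites, -3.81 and -3.74 points, had intervals that include 0 (-7.80 to 0.170 and -7.80 to 0.304). H3K4me3 in deleted tumors was called at 1.65% of them, a difference of 4.34 points (2.45 to 6.35).

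The marks were next combined at each site, ignoring H3K27ac. In positive tumors 336 sites (42.8%) carried none of the 3 marks, 299 (38.1%) carried H3K4me1 without H3K27me3 or H3K4me3, and 86 (10.96%) carried H3K27me3 alone. Over all 14282 peaks these shares were 7.2%, 34.8% and 1.72%. They were 4.19%, 54.5% and 0.259% of the already acetylated gained peaks and 50.5%, 26.75% and 16.05% of those acetylated in neither. In deleted tumors 600 (76.4%) carried H3K4me1 alone and 109 (13.9%) carried H3K4me1 with H3K27me3, while 21 (2.675%) carried none. Those shares were 51.4%, 2.20% and 3.43% over all 14282 peaks. At the already acetylated peaks they were 64.1%, 1.59% and 0.148%, and at those acetylated in neither 43.5%, 10.01% and 33.6%. The commonest pairing was from no mark to H3K4me1, at 295 sites (37.6%), followed by H3K4me1 in both tumor types at 283 (36.05%). Over all 14282 peaks these pairings were found at 4.18% and 32.1%. The first was found at 4.00% of the already acetylated gained peaks and 18.2% of those acetylated in neither tumor type, and the second at 50.1% and 23.2%. A further 62 sites (7.90%) had H3K27me3 alone in positive tumors and H3K27me3 with H3K4me1 in deleted tumors. This pair of marks was called in both tumor types at 23 (2.93%). These were 0.770% and 0.728% of all 14282 peaks. They were 0.0741% and 1.04% of the already acetylated peaks and 4.80% and 2.33% of those acetylated in neither. H3K4me3 together with H3K27me3, the bivalent combination, was called at 16 sites in positive and 27 in deleted tumors, 14 of them in both. These are 2.04% and 3.44% of the sites, against 1.03% and 1.45% of all 14282 peaks (intervals at the sites 1.26 to 3.29 and 2.37 to 4.96). It was called at 1.15% and 1.56% of the already acetylated peaks and at 1.51% and 0.823% of those acetylated in neither. Counted with H3K27ac, 18 sites (2.29%) gained acetylation with none of the other 3 marks in either tumor type. None of these 3 marks in either was found at 2.57% of all 14282 peaks. That was 0.111% of the already acetylated peaks and 28.8% of those acetylated in neither.

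**Figure D3:**
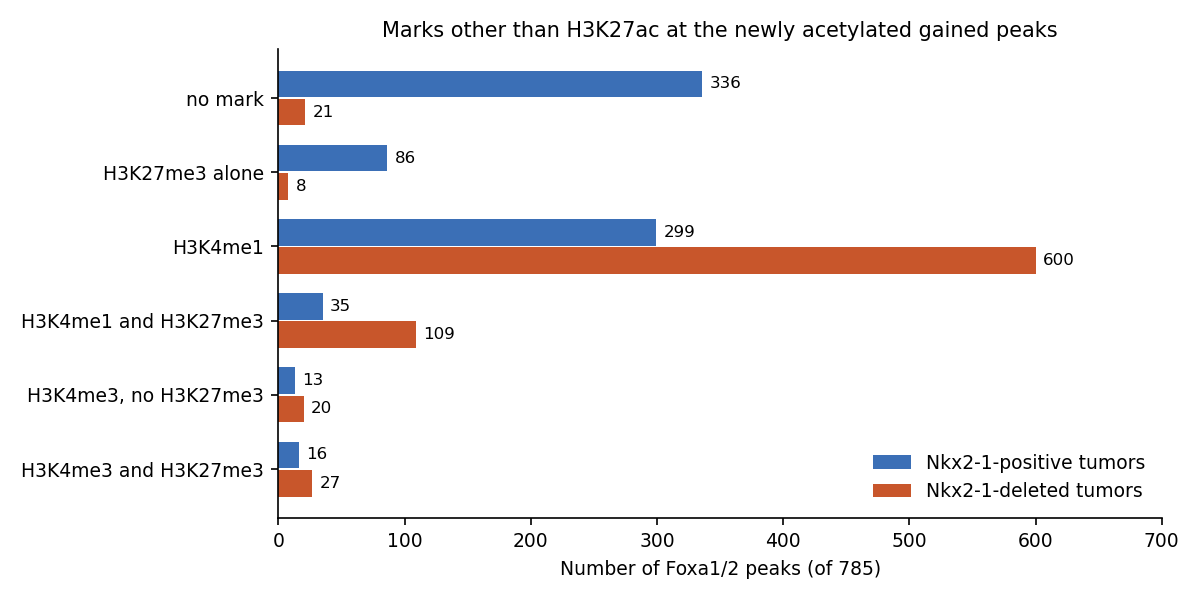
Number of the 785 sites (x axis) with each combination of H3K4me1, H3K4me3 and H3K27me3 (y axis) in positive (blue) and deleted (orange) tumors; a site with H3K4me3 is counted there whether or not it has H3K4me1. Sites with no mark number 336 in positive and 21 in deleted tumors, and sites with H3K4me1 alone number 299 and 600.

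Sites that lay under H3K27me3 in positive tumors had H3K4me1 less often there, and at a similar share in deleted tumors. Of the 137 sites with H3K27me3 in positive tumors, 35.8% had H3K4me1 there, against 48.0% of the other 648, a difference of -12.2 points (-20.7 to -3.08). In deleted tumors the shares were 95.6% and 96.5%, and the difference of -0.830 points (-5.82 to 2.09) had an interval that includes 0. In positive tumors 86 of the 137 had neither H3K4me1 nor H3K4me3. Over all 14282 peaks that was 246 of the 542 with H3K27me3 there, while 1029 of the 14282 carried none of the 3 marks. Among the 729 gained peaks acetylated in neither tumor type it was 117 of 155, while 368 of the 729 carried none. Fewer H3K4 marks under H3K27me3 are thus not shown to be particular to these sites. H3K27me3 was also called in deleted tumors at 116 of the 137 (84.7%). Among all 14282 peaks it was called in both tumor types at 456 of the 542 with the mark in positive tumors. Among the 729 gained peaks acetylated in neither, that was 133 of 155. A call in both tumor types was thus not particular to these sites. H3K4me3 was called in deleted tumors at 17.5% of the 137 and 3.55% of the 648, a difference of 14.0 points (8.25 to 21.3). Over all 14282 peaks the order was the other way. There H3K4me3 was called in deleted tumors at 42.1%, and less often where positive tumors had H3K27me3. Of the 47 sites with H3K4me3 in deleted tumors, 27 also had H3K27me3 and 25 had H3K4me3 in positive tumors as well. Over all 14282 peaks, 207 of the 6009 with H3K4me3 in deleted tumors had H3K27me3 there. Among the 729 gained peaks acetylated in neither, that was 6 of 12. At 107 sites (13.6%) islands of both H3K27ac and H3K27me3 covered the summit in deleted tumors. Taken singly there, H3K27ac covered 692 summits and H3K27me3 128. The joint count was not made at other peaks, so it is not shown to be particular to these sites. Whether both marks lay in the same cells was not tested.

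H3K27me3 and H3K4me1 are described next across the sites in 4 equal groups, by measures that come from the calls behind the rule. By distance to the nearest positive-tumor H3K27ac island, the nearest 197 sites (9 to 2252 bp away) had H3K27me3 in positive tumors at 11.2%, and the farthest 196 (18842 bp or more) at 33.2%, a difference of 22.0 points (13.9 to 29.8). The 137 sites with the mark had a median distance of 16891 bp to such an island and of 58280 bp to a positive-tumor Foxa1/2 peak, against 5205 and 26292.5 bp for the other 648. Neither comparison was made at other peaks, so neither is shown to be particular to these sites. By Foxa1/2 score, the share was 17.8% in the lowest and 17.9% in the highest of 4 equal groups. H3K4me1 in positive tumors was 47.7% and 41.3% in those groups, and that difference of -6.39 points had an interval (-16.0 to 3.41) that includes 0. In deleted tumors H3K4me1 was called at 94.4% or more of every group of the 4 by score, by H3K27ac island width and by distance.

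**Figure D4:**
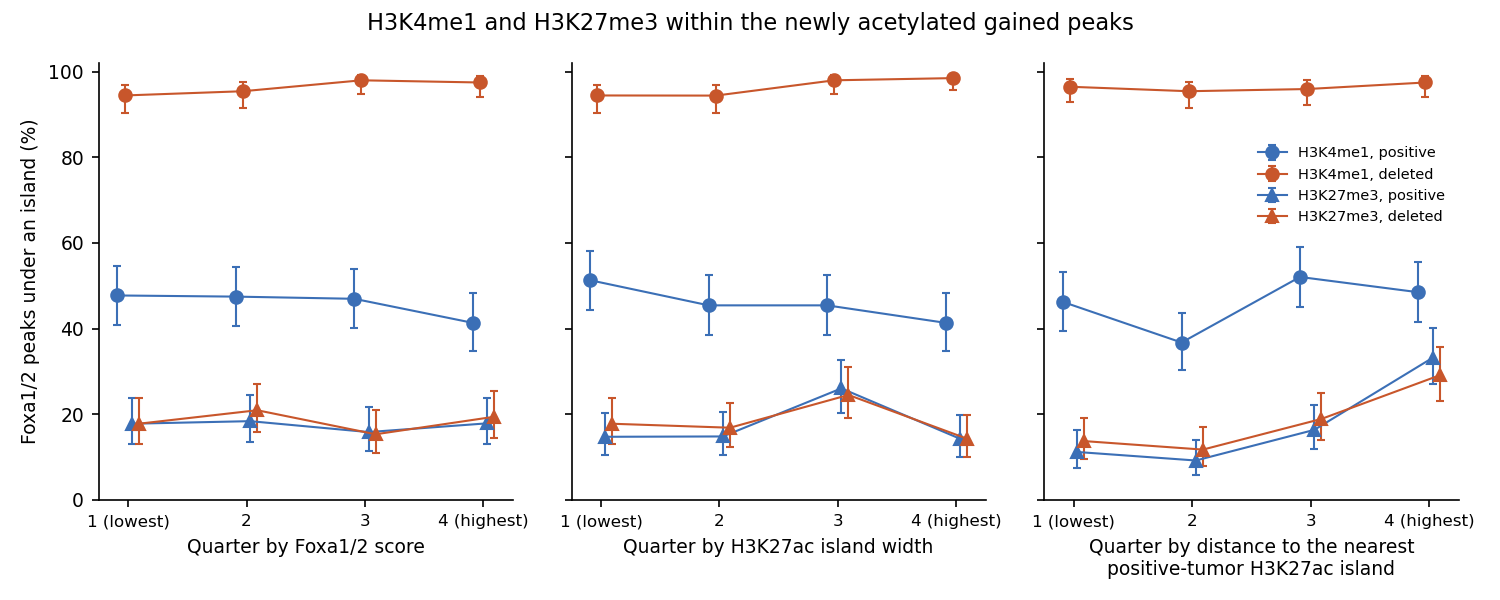
Percentage of sites under H3K4me1 (circles) and H3K27me3 (triangles) in positive (blue) and deleted (orange) tumors (y axis; bars are 95% Wilson intervals) in 4 equal groups by score, H3K27ac island width and distance to a positive-tumor H3K27ac island (x axes). H3K27me3 in positive tumors is 11.2% in the nearest and 33.2% in the farthest group by distance, while H3K4me1 in deleted tumors stays at 94.4% or above throughout.

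The acetylated islands around these sites were mostly small and mostly held 1 site. The 785 sites lay in 784 distinct H3K27ac islands, of which 766 held 1 site and 18 held 2. Since 17 sites overlapped 2 islands, those sites are counted in both. In 717 of the islands there was no deleted-tumor Foxa1/2 peak other than these sites, and 43 sites shared their island with a peak bound in both tumor types. Positive-tumor Foxa1/2 peaks were not counted in the 717. Wholly new islands, which overlapped no positive-tumor island anywhere, numbered 626 and held 622 sites (79.2%), each site counted by the island it overlapped most. The other 158 islands also reached over a positive-tumor island away from the site; their median width was 7300 bp against 2200 bp for the new ones. Median read count was 133 in the new islands and 874.5 in the others, within the same list. H3K4me1 in positive tumors was 46.3% at sites in wholly new islands and 44.2% at the rest, a difference of 2.13 points (-6.47 to 10.51). The summit was under the island at 692 sites, and at a median of 433.5 bp from its centre.

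Gained Foxa1/2 binding coincided with a minority of newly acetylated islands, and with a larger share of the wide ones. Of 6530 wholly new autosomal H3K27ac islands, 626 (9.59%, 8.90 to 10.3) held one of the 785 sites and 5705 held no Foxa1/2 peak of deleted tumors. The share was 4.68% for islands under 1000 bp, 5.95% from 1000 to under 2000 bp, 15.3% from 2000 to under 4000 bp and 42.1% (131 of 311) from 4000 bp upward. A wider island has more room for a peak, and its part in this order was not tested. In deleted tumors H3K4me1 was called at 95.8% of the new islands with a site and 67.1% of those without a Foxa1/2 peak, a difference of 28.7 points (26.5 to 30.5). Within the 4 width classes it was 30.5, 30.2, 17.5 and 6.33 points from narrow to wide, each with an interval above 0. In positive tumors the difference was 9.63 points (5.52 to 13.7), and its intervals included 0 in the narrowest and the widest class (-6.61 to 19.2 and -7.43 to 15.4). H3K27me3 in positive tumors was 21.4% against 15.8%, a difference of 5.60 points (2.41 to 9.10), while within each of the 4 width classes the interval included 0.

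**Figure D5:**
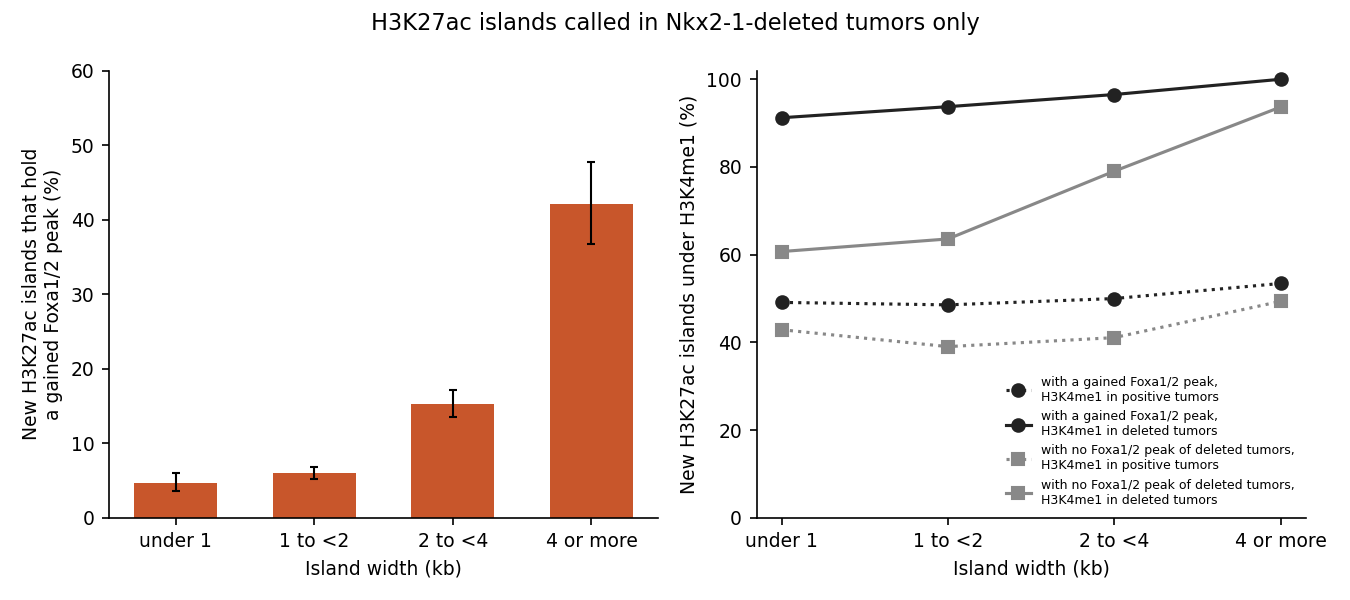
Left, percentage of wholly new H3K27ac islands that hold a newly acetylated gained Foxa1/2 site (y axis; bars are 95% Wilson intervals) by island width in kb (x axis). Right, percentage of new islands under H3K4me1 in positive (dotted) and deleted (solid) tumors, with such a site (black circles) and with no deleted-tumor Foxa1/2 peak (grey squares); in deleted tumors the points differ by 30.5 percentage points in the narrowest and 6.33 in the widest class.

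Distances to positive-tumor binding are described next; since the rule removed sites that overlap a positive-tumor Foxa1/2 peak, Nkx2-1 peak or H3K27ac island, they are partly set by the choice. The median distance to the nearest positive-tumor Foxa1/2 peak was 30378 bp, against 11319 bp for the already acetylated gained peaks and 39595 bp for those acetylated in neither. To the nearest Nkx2-1 peak it was 24393, 8267 and 34579 bp in the same order, and 24.8%, 55.0% and 17.3% lay within 10 kb of one. Within 50 kb of a positive-tumor Foxa1/2 peak lay 65.2% of the sites, and 69.3% lay within 50 kb of an Nkx2-1 peak. Deleted-tumor H3K4me3 islands, which mark promoters, were within 1 kb of 9.17% of the sites, of 40.0% of the already acetylated peaks and of 3.84% of those acetylated in neither. By each of these distances the newly acetylated sites stood between the other classes. The nearest positive-tumor H3K27ac island was a median of 6032 bp away, and 24 sites were within 200 bp of one.

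The sites occurred on every autosome, from 27 to 74 per chromosome, or 3.69% to 7.07% of that chromosome's deleted-tumor Foxa1/2 peaks. The share with H3K4me1 was 32.4% to 57.9% per autosome in positive and 90.9% to 100% in deleted tumors, so the ranges did not overlap. Most sites had no other within 50 kb, with a median of 518747 bp to the next. Within 50 kb of another lay 151 (19.2%, 16.6 to 22.1), in 69 clusters of which 59 held 2 sites. The already acetylated peaks were closer to their own kind, with 37.9% within 50 kb, but there were also more of them. Of the 836 gained peaks without H3K27ac in deleted tumors, a class of similar size, 8.85% (7.11 to 10.97) lay within 50 kb of another, a lower share than here. The cluster with the most sites, chr15:95806016-95910746, held 5, of which 2 had H3K4me1 in positive tumors and 5 in deleted tumors, and H3K27me3 was called at 3 and 1 of them. The next, chr3:116719139-116777084, held 4, with H3K4me1 at 1 in positive and 4 in deleted tumors and no H3K27me3.

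The 10 sites with the highest Foxa1/2 scores, 1132 to 2544, stand far above the median of 126. All coordinates are of build mm9 and count from 1, and genes are not assigned, since no annotation of that build was used here. H3K4me1 was called at 2 of the 10 in positive and at 10 in deleted tumors (45.9% and 96.3% of all 785), and 8 lay in wholly new H3K27ac islands. The highest, chr7:120873379-120874724 (score 2544), had no mark in positive tumors and lay wholly under H3K4me1 and an H3K27ac island of 5600 bp and 581 reads in deleted tumors. It was 134556 bp from the nearest positive-tumor Foxa1/2 peak. The same pattern was seen at chr1:90851015-90852232 (score 1878), chr4:87461099-87462402 (1686), chr12:117721575-117722918 (1468) and chr7:105997294-105998514 (1132). These 5 were therefore blank for all 4 marks in positive tumors and wholly under H3K4me1 and H3K27ac in deleted tumors.

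The other high-scoring sites differed in their positive-tumor marks or in their islands. At chr4:80682968-80684509 (score 1625), positive-tumor H3K4me1 covered 90.8% of the peak and deleted-tumor H3K4me1 all of it, and the H3K27ac island was narrow, at 1600 bp. At chr15:61277375-61278733 (1281) the H3K4me1 cover was 90.2% and 100%, within an H3K27ac island of 19000 bp that also reached over a positive-tumor island. At chr2:59254525-59255689 (1136), no mark was called in positive tumors and the deleted-tumor H3K27ac island spanned 29600 bp, again reaching over a positive-tumor island, the nearest of which was 1911 bp from the peak. Of these, the first and second had H3K4me1 in positive tumors, where no Foxa1/2 was called, and the last had none.

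Sites in Polycomb domains were among the strongest as well. At chr13:97732375-97733589 (score 1831), H3K27me3 covered 81.4% of the peak in positive and all of it in deleted tumors, where H3K4me1 and H3K27ac islands also covered it whole. At chr14:34898482-34899709 (1437), H3K27me3 covered 34.9% in positive and 100% in deleted tumors. H3K4me1 and H3K4me3 were not called there in positive tumors and covered all of the peak and 41.5% of it in deleted tumors. At chr14:35428097-35429467 (1097), all 3 marks were present in positive tumors, and H3K4me3 cover was 51.4% there and 80.5% in deleted tumors; this site is 348 bp from an Nkx2-1 peak. At chr9:45184609-45185828 (729), H3K27me3 covered the whole peak in positive and 15.7% in deleted tumors. These sites had H3K27me3 calls in both tumor types, some with more and some with less cover in deleted tumors, where H3K27ac was newly called.

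As over all 14282 peaks (86, against 456 in both tumor types), an H3K27me3 call in positive tumors only was less common, at 21 sites. The one with the highest score, chr2:147638802-147639993 (790), was wholly under H3K27me3 in positive tumors and under none in deleted tumors, where H3K4me1 covered all of it and H3K27ac 66.4%. At chr8:92893519-92894413 (356), the next by score, H3K4me1 was called in neither tumor type. At chr6:50614084-50615696 (282) H3K27me3 was likewise called in positive tumors only, with a deleted-tumor H3K27ac island of 7800 bp. On chromosome 15, 2 sites shared an island of 12200 bp, chr15:95861377-95862145 (68) and chr15:95865544-95866422 (239). H3K27me3 covered 44.9% of the former and all of the latter in positive tumors and neither in deleted tumors. Both belong to the cluster of 5 named above.

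H3K4me3 called in deleted tumors only was led, after the site on chromosome 14, by chr9:66573033-66574100 (score 670), chr6:121125667-121126809 (634) and chr1:39161989-39162955 (439). Their deleted-tumor H3K4me3 cover was 46.8%, 69.99% and 98.8%. The chromosome 6 site lay wholly under H3K27me3 in both tumor types, and the chromosome 9 and 1 sites had H3K4me1 but no H3K27me3 in positive tumors. At the other end, 27 sites had H3K4me1 in neither tumor type. Their median score was 104, and the highest was chr16:52888033-52889130 (591), where a new H3K27ac island of 1800 bp and 95 reads covered 30.1% of the peak and not its summit.

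Islands with 2 sites and very wide new islands were the exceptions. The new island with 2 sites and the most reads (2033 over 11400 bp) held chr3:100622304-100623322 (248), with no mark in positive tumors, and chr3:100624675-100625698 (212), wholly under H3K4me1 in positive tumors. Neighbouring sites within an island thus could differ in their positive-tumor H3K4me1. In an island of 8000 bp on chromosome 5, chr5:115414131-115414970 (79) and chr5:115420620-115421520 (111) were both wholly under H3K27me3 in positive tumors and had H3K4me3 cover of 67.9% and 100% in deleted tumors. The widest wholly new island with a site, 19600 bp and 2393 reads, surrounded chr5:73755118-73756045 (132), whose H3K4me1 cover was 91.1% in positive tumors.

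The sites nearest to the edge of the rule were chr10:60749010-60749822 (score 127) and chr3:104334813-104335613 (96), which ended 9 and 12 bp short of a positive-tumor H3K27ac island. Just outside it, chr6:32418798-32419627 (81) and chr6:147263446-147264215 (233) overlapped such an island by 3 and 15 bp.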

How the data were processed

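The 785 sites and all comparisons were chosen with earlier results of these data known. Tumor chromatin was immunoprecipitated and sequenced; Bowtie, MACS 1.4.2, SICER 1.1 and mm9 appear, with no role given, in the submitters' processing notes. The authors deposited merged peak lists with a score per peak and merged island lists with a read count per island, not scaled for depth; scores and counts were used only within a list. The names of the deposited lists give peaks a p of 1e-06 and islands an FDR of 0.01, windows of 200 bp and gaps of 600 bp for H3K4me1 and H3K27me3 or 200 bp for the other marks. Of 31 samples, 9 inputs were not used here; the other 22 files gave 11 lists, grouped by target and Nkx2-1 status.

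Presence of a mark meant an overlap of at least 1 bp. Shares have 95% Wilson intervals, differences between classes Newcombe intervals, and differences between tumor types intervals from the sites that changed call. They treat sites as independent, which neighbouring sites are not. Overlaps were tested on simulated intervals. Sites were named by rule: the 10 highest scores, islands with most sites, the widest new islands, the 5 highest scores per mark class, and those next to the threshold; the clusters were added after their values were seen. The annotation and sequences at hand are of another build, so gene lists, sequences and motif searches were not analysed here. Python 3.11.15, numpy 2.4.6, pandas 2.3.3 and matplotlib 3.10.9 were used.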

Additional observations from a re-analysis of the deposited data

How the results depend on the processing

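Of 186 alternative values for 22 results, 151 stayed close to the value reported, which for shares and differences means within its interval. Of 11 differences whose interval lay off 0, 93 of 94 alternatives kept the sign and 1 did not, and 6 intervals came to include 0: the H3K4me1 difference from gained peaks without H3K27ac in deleted tumors, taken in positive tumors, in 4 alternatives (equal covered length, upper 50% of peaks, 1000 bp margin, and upper 50% of islands against peaks acetylated in neither tumor type), and H3K4me3 with the upper 50% of islands in 2. The H3K27me3 difference between tumor types came off 0 with equal covered length, at 1.78 points, and was negative, with an interval that includes 0, with 50% overlap (-0.382) and at the summit (-0.510). The number of sites was 330 from the upper 50% of Foxa1/2 peaks and 421 from the upper 50% of H3K27ac islands. With the upper 50% of islands by read count, H3K4me1 was called at 12.2% and 51.6% (difference 39.4 points), H3K4me3 at 1.401% and 1.66% (0.255) and H3K27me3 at 13.5% and 14.9%. In that setting the differences from already acetylated peaks were, in positive and deleted tumors, -65.4 and -39.0 points for H3K4me1 and -21.5 and -14.5 for H3K4me3, and 11.65 for H3K27me3 in positive tumors. Those from gained peaks without H3K27ac in deleted tumors were -5.35 (opposite sign) and 33.4 for H3K4me1, and 0.819 for H3K4me3 in deleted tumors; the cause was not tested. With positive-tumor lists cut to equal covered length, H3K4me1 in positive tumors was 37.45% (difference between tumor types 58.85, from already acetylated peaks -55.55) and H3K4me3 1.53% (4.46 and -16.1). The H3K4me3 difference from already acetylated peaks was -33.45 and -25.1 with 50% overlap, and -33.2 and -24.9 at the summit. Among the upper 50% of sites by score (393), H3K4me1 in deleted tumors was 97.7%, its differences from the other classes -2.14 and 33.8, and H3K4me3 in positive tumors 2.29%. Against gained peaks acetylated in neither tumor type, a class added after the data were seen, the positive-tumor H3K4me1 difference was 12.5; with the upper 50% of islands as well it was 0.295, and that of H3K4me3 in deleted tumors 1.245. No paired analysis was possible because both files of a group are the same merged list, and for that reason no library could be left out. Read counts in islands limit what is called: a mark not called may be present below the island threshold.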

Other observations

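The opposite class, Foxa1/2 peaks of positive tumors off Nkx2-1 sites that had neither a Foxa1/2 peak nor H3K27ac in deleted tumors but had H3K27ac in positive tumors, numbered 910. H3K4me1 was called at 97.1% of them in positive and 73.1% in deleted tumors, so they more often had H3K4me1 without Foxa1/2 and H3K27ac than the newly acetylated sites did (45.9% in positive tumors), a difference, newly acetylated minus opposite class, of -27.2 points (-31.7 to -22.6). H3K27me3 in those states was 3.52% at the opposite class and 13.9 points (11.1 to 16.9) higher at the newly acetylated sites. H3K4me3 was called at 18.7% of the 910 in positive and 3.52% in deleted tumors. The H3K4me1 lists held 35.8 M reads in positive and 29.8 M in deleted tumors, and the part of this in the difference was not tested.

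Outside the autosomes, 25 Foxa1/2 peaks met the same conditions, all on the X chromosome, where 239 deleted-tumor Foxa1/2 peaks were listed. H3K4me1 was called at 13 of the 25 in positive and 20 in deleted tumors, and H3K27me3 at 5 and 3. Sex differed between the Foxa1/2 groups and cannot be told apart from Nkx2-1 status there.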
